A study of Homo sapiens with 18 samples.

Results

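The genes described here are the 44 listed genes of chromosome band 11p15.4 that lie between RRM1 and ADM, beside the neighbouring genes STIM1 and RRM1, out of 26485 genes in the table of normalized counts. They were chosen by position on the chromosome and on their measured fold in gemcitabine-resistant over parental cells, which had been seen in these same libraries. Their levels in resistant against parental cells are therefore given as a description, and no call of that contrast is read as a result. Of the 44 genes, 36 had a mean of at least 10 normalized counts over all libraries and entered the comparisons, in which 13096 genes were tested. Polyadenylated RNA was sequenced from L3.6pl, a line of human pancreatic cancer cells called Par, and from GemR, a single gemcitabine-resistant derivative kept in 64 nM gemcitabine. GemR cells received an siRNA against STIM1 (siSTIM1) or a control siRNA (siCont), and Par cells received siCont, for 48 h. During the last 3 h cells had 500 nM thapsigargin, which blocks the pump that loads the endoplasmic reticulum (ER) with calcium, or its vehicle, DMSO. The 6 groups were GemR siSTIM1 thapsigargin, GemR siSTIM1 vehicle, GemR siCont thapsigargin, GemR siCont vehicle, Par thapsigargin and Par vehicle, with 3 libraries each. All cells had thus been transfected with an siRNA, and Par cells with siSTIM1 were not analysed here. Since GemR is 1 derivative and alone was kept in the drug, resistance, drug exposure and any other difference of that derivative cannot be told apart. The labels number the replicates without saying whether they were separate cultures, so p-values measure the spread between these libraries.

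The distal short arm of chromosome 11 carries a dense run of genes in which olfactory receptors alternate with TRIM genes, a family of RING-type ubiquitin ligases, several of them antiviral. RRM1 codes for the large subunit of ribonucleotide reductase, the enzyme that makes deoxynucleotides and is a target of gemcitabine metabolites, and gain of RRM1 expression is a known route to resistance against the drug. STIM1 senses calcium inside the ER and, once the ER is depleted, gates calcium entry through Orai channels of the cell surface. The listed genes share a location and no single pathway: among them are ubiquitin ligases, lysosomal enzymes, ribosomal and translation proteins, membrane traffic regulators, the cell cycle kinase WEE1 and the vasodilator peptide adrenomedullin (ADM). DNA copy number was not measured in these libraries.

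Libraries held 8922439 to 16519239 reads. STIM1 was at 390, 356 and 401 normalized counts in GemR siSTIM1 vehicle libraries, against 4976, 6294 and 6401 in GemR siCont vehicle libraries, which is 15.3-fold lower with siSTIM1 and fits the labels. The knockdown left STIM1 near its level in Par vehicle libraries, 444 to 481. Epithelial keratin and adhesion markers were abundant, with 6 of 6 detected and a summed level of 38610 to 67739 normalized counts per library. Summed levels of other cell types' markers were 1002 to 3177 for fibroblasts and 73.2 to 177 for leukocytes. They were 114 to 282 for endothelium and 0 to 7.28 for endocrine and acinar pancreas. Of the 5 fibroblast markers, 2 had a mean of 10 or more, COL1A1 (1710) and COL1A2 (27.6), while DCN was at 0. Of the 4 leukocyte markers CD68 (135) reached that mean, and of the 3 endothelial ones PECAM1 (109) and CDH5 (97.4) did. A pair of libraries stood apart from their replicates: GemR siCont vehicle replicate 1, with a chi-square per degree of freedom of 30.3 and 39.5 against the other two, and GemR siSTIM1 thapsigargin replicate 1, with 16.2 and 15.2. Other replicate pairs gave 1.84 to 4.99, and no replicates were identical. In both libraries the deviation from the group fell with exon length across genes (Spearman rho of -0.505 and -0.428), and counts of calls are also given without both. In bulk RNA, fewer cells that express a gene and less RNA per cell cannot be told apart.

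Most of the listed genes stood higher in GemR cells than in Par cells. With siCont and vehicle, the median log2 fold change of GemR over Par was 1.82 over the 36 genes, a 3.53-fold difference, beside a median of 0.00 over all tested genes. The middle part of the distribution, from the lower to the upper quartile, ran from 1.31 to 2.06 on the log2 scale, and 23 of the 36 lay between 1.5 and 2.5. At an adjusted p under 0.05, 32 of the 36 were called higher, and the other 4 (ZNF215, TUB, STK33 and SBF2) were called in neither direction, where 18.1% of all tested genes were called higher and 20.1% lower. Nothing is read from these counts, because the genes were chosen with this contrast in view. At least 2-fold higher were 28 of the 36, beside 3.05% of all tested genes. STIM1 and RRM1 themselves had log2 fold changes of 3.68 and 4.16. Among the listed genes only TRIM6, at 4.02, lay above STIM1, and none lay above RRM1. RRM1 reached 55344, 50841 and 53625 normalized counts in GemR siCont vehicle libraries, against 3011, 2868 and 3060 in Par vehicle libraries.

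**Figure D1:**
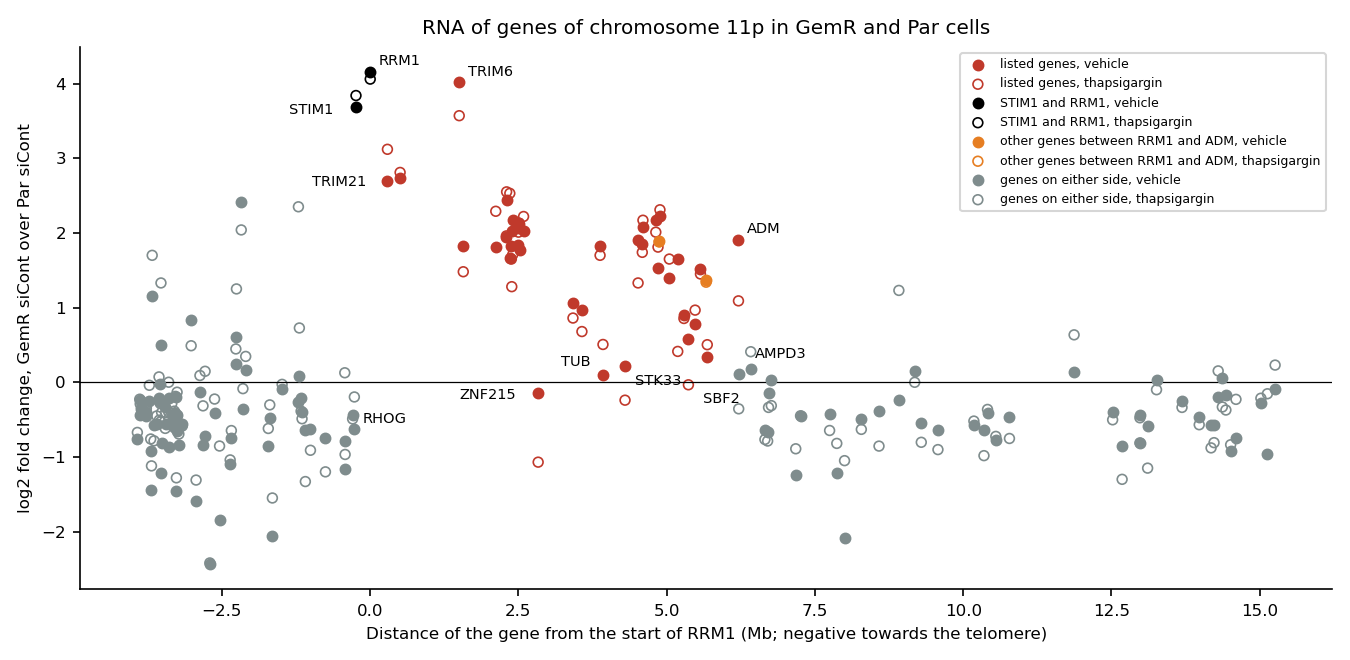
Log2 fold change of GemR siCont over Par siCont (vertical axis) against the distance of each gene's start from the start of RRM1 in megabases (horizontal axis), with filled symbols for vehicle and open symbols for thapsigargin; listed genes are red, STIM1 and RRM1 black, other tested genes between RRM1 and ADM orange and flanking genes grey. The listed genes sit mostly between 1 and 3, while the grey genes on both sides centre below 0, with medians of -0.47 on each side in vehicle.

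Positions come from GENCODE 29 (GRCh38). The run of higher genes opened with STIM1 at chr11:3854527-4093210 and RRM1 at chr11:4094707-4138876 and, as the list was drawn up, ended with ADM at chr11:10304680-10307397, 6.21 Mb from the start of RRM1 to the start of ADM. Just beyond STIM1, on the telomeric side, RHOG at chr11:3826978-3840983 had a log2 fold change of -0.63, PGAP2 had -0.44 and NUP98 had -0.78. On the side of ADM the folds were uneven before the end of the list, with WEE1 at 0.78, SWAP70 at 1.52 and SBF2, the gene next to ADM, at 0.34. Just beyond ADM, AMPD3 at chr11:10308313-10507579 had 0.11, RNF141 had 0.17 and CTR9 had -0.64. Among the 65 tested genes between STIM1 and the telomere the median was -0.47, and 3 were called higher and 43 lower. Among the 41 tested genes in the 10 Mb beyond ADM the median was also -0.47, 25 were called lower, and the highest value was 0.17. The other 573 tested genes of chromosome 11 had a median of 0.07. Between RRM1 and ADM the table lists 97 further genes, of which 2 were tested, the antisense RNAs TMEM9B-AS1 at 1.89 and SBF2-AS1 at 1.37.

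Within the interval the difference was not even. TRIM21 and TRIM68, the tested genes in the first megabase after RRM1, had log2 fold changes of 2.69 and 2.74. TRIM5 and TRIM6, between 1 and 2 Mb, had 1.83 and 4.02. The 13 tested genes between 2 and 3 Mb had a median of 1.94, the 4 between 3 and 4 Mb a median of 1.02, the 7 between 4 and 5 Mb a median of 1.91 and the 7 between 5 and 6 Mb a median of 0.90, while ADM, the last gene, had 1.91. Over the 36 genes, distance from RRM1 and log2 fold change had a Pearson r of -0.498 and a Spearman rho of -0.512. This describes neighbouring genes of the same libraries and is given without a test.

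The TRIM genes held the 3 highest folds of the list. TRIM6, a RING ubiquitin ligase at chr11:5596109-5612958, had 136, 119 and 134 normalized counts in GemR siCont vehicle libraries, against 8.12, 13.4 and 2.93 in Par vehicle libraries. Every GemR library lay above every Par library, but the Par values were a handful of reads, so the fold of 16.3 has a wide error (log2 fold change of 4.02 ± 0.36; values after ± on the log2 scale are standard errors of the fit). TRIM21, the cytosolic antibody receptor, had 2181, 1808 and 1740 in GemR siCont vehicle libraries, against 290, 288 and 301 in Par vehicle libraries, a fold of 6.46. TRIM68, a ubiquitin ligase that acts on the androgen receptor, had 713, 837 and 960 in GemR siCont vehicle libraries, against 125, 122 and 125 in Par vehicle libraries, a fold of 6.66. The groups were far apart for both genes. TRIM5, the restriction factor that binds retroviral capsids, TRIM3 and TRIM66 had log2 fold changes of 1.83, 1.67 and 1.91. Whether counting used strand is not stated by the sources at hand, and TRIM6 overlaps the read-through gene TRIM6-TRIM34 on its own strand, so its reads cannot be fully told from that gene's.

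The groups by role differed in level. Median log2 fold changes were 0.97 for the 3 tested neuronal, ciliary and other genes (0.10 to 2.17) and 0.78 for the 3 of cell cycle and kinases (0.21 to 2.12), 2.06 for the 5 of transcription and chromatin (-0.14 to 2.44) and 1.91 for the 3 of adhesion, secretion and signalling (1.06 to 2.17). The 4 tested genes of the ribosome, translation and nucleolus (RPL27A, EIF3F, MRPL17 and RRP8) lay between 1.82 and 2.02, the narrowest range of any group with more than 2 genes. RPL27A, a protein of the large ribosomal subunit, had 23878, 15459 and 14170 normalized counts in GemR siCont vehicle libraries, against 5050, 4893 and 4552 in Par vehicle libraries, with the highest value in the replicate that stood apart. MRPL17, EIF3F and RRP8 also had their highest GemR siCont vehicle value in that replicate, at 8935, 3910 and 1164. RPL27A has processed copies elsewhere in the genome, and how reads shared with them were assigned is not stated. The lysosomal enzymes SMPD1 (acid sphingomyelinase) and TPP1 (tripeptidyl peptidase) had 1.94 and 1.77. The 10 genes of membrane traffic, import and GTPase regulation had a median of 1.59 and ran from 0.34 for SBF2 to 2.08 for ST5. APBB1, an adaptor of the amyloid precursor protein, had 741, 780 and 681 in GemR siCont vehicle libraries, against 143, 135 and 126 in Par vehicle libraries, a log2 fold change of 2.44. NRIP3 and AKIP1 followed at 2.23 and 2.17.

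Not all genes of the interval were higher in GemR. ZNF215, a zinc finger gene, had 98.0, 95.5 and 99.4 normalized counts in GemR siCont vehicle libraries, against 103, 110 and 111 in Par vehicle libraries, a log2 fold change of -0.14. Its GemR values lay just below its Par values. TUB, the tubby protein of cilia, had 297, 382 and 373 in GemR siCont vehicle libraries, against 308, 341 and 327 in Par vehicle libraries, and the groups overlapped. The overlap came only from the 297 of GemR siCont vehicle replicate 1, which stood apart from its replicates. STK33, a kinase gene, had 0.21, with overlapping groups. SBF2, a myotubularin pseudophosphatase, had 0.34. SBF2 was at 344, 511 and 617 in GemR siCont vehicle libraries, against 337, 380 and 421 in Par vehicle libraries. Its overlap, too, came only from replicate 1 of GemR siCont vehicle. ZNF143, a transcription factor, and WEE1, the kinase that holds CDK1 inactive, lay at 0.58 and 0.78. Of the 4 genes below 0.5, TUB and STK33 were next to each other among tested genes, with the untested RIC3 and LMO1 between them, and this pair lay between EIF3F at 1.82 and TRIM66 at 1.91. ZNF215 lay between MRPL17 at 2.02 and PPFIBP2 at 1.06, and SBF2 between SWAP70 at 1.52 and ADM at 1.91.

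The remaining 8 listed genes, TRIM34, TRIM22, DCHS1, ZNF214, SYT9, RIC3, LMO1 and SCUBE2, were below the minimum mean and are not part of any count. Their means over all libraries ran from 0.224 for SYT9 to 8.88 for DCHS1, a protocadherin. The highest single value among them was 16.9, also of DCHS1. TRIM22 had a mean of 2.22 and TRIM34 of 0.755, so these neighbours of TRIM6 and TRIM5 were near the detection limit in both cell states.

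The thapsigargin libraries were also among the values with which the genes were chosen, so their GemR over Par levels are a description too. With thapsigargin, GemR siCont over Par had a median log2 fold change of 1.70 over the 36 genes, beside 0.00 over all tested genes, and 33 were called higher and 1 lower, where 23.2% of all genes were called higher and 25% lower, and nothing is read from these counts. ZNF215, the gene called lower, had a log2 fold change of -1.07, and STK33 (-0.24) and ZNF143 (-0.03) were called in neither direction. TUB (0.51) and SBF2 (0.50), not called with vehicle, were called higher with thapsigargin. TMEM41B had 1.65 with vehicle and 0.41 with thapsigargin. Across the 36 genes the vehicle and thapsigargin fold changes had a Pearson r of 0.891 and a Spearman rho of 0.804, and 29 of them differed by less than 0.5. In all, 28 of the 36 had each of the 12 GemR libraries, siSTIM1 included, above each of the 6 Par libraries, beside 5% of all tested genes, again with nothing read from it. STIM1 was not one of the genes so separated, since its siSTIM1 libraries lay at 272 to 401 and its Par libraries at 421 to 481.

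**Figure D2:**
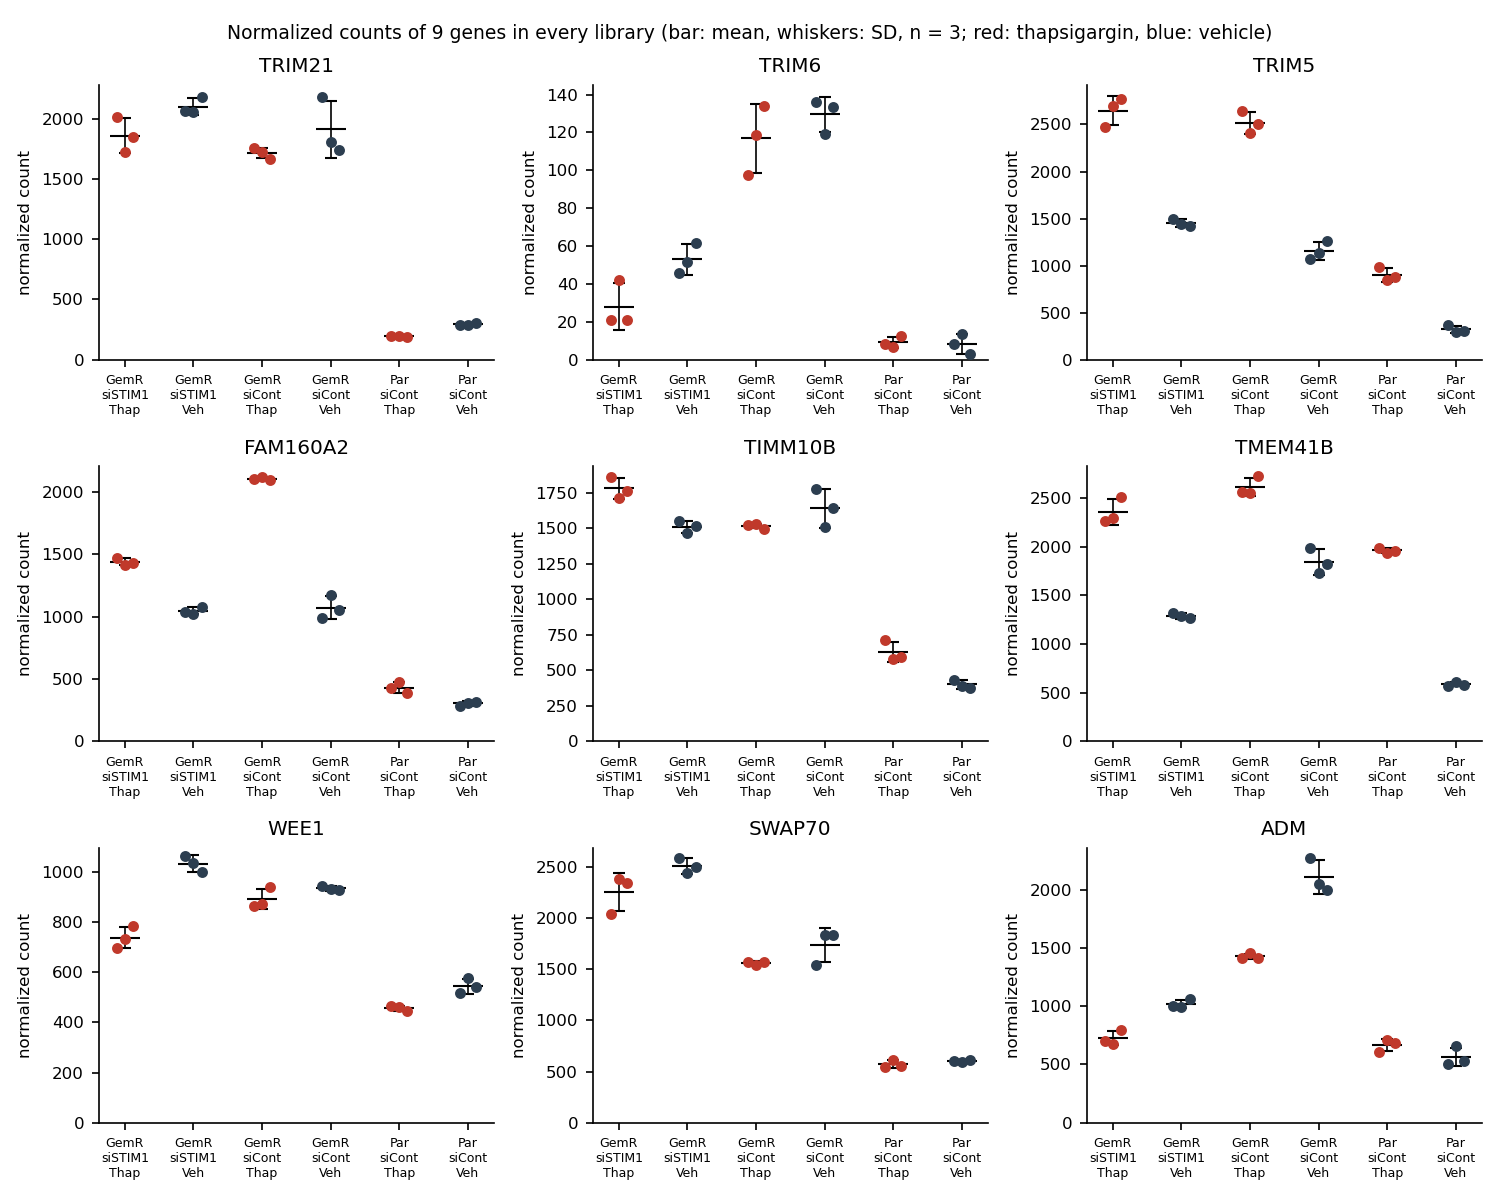
Normalized counts of 9 listed genes in the 18 libraries, with a point per library, a bar for the group mean and a whisker of 1 SD (n = 3). TMEM41B and TRIM5 stand higher with thapsigargin in every group, ADM stands lower with siSTIM1, and TRIM6 is near 0 in Par.

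The first tested question was how the listed genes responded to 3 h of thapsigargin. In GemR siSTIM1 cells 5 of the 36 rose and 3 fell at an adjusted p under 0.05 (limma, adjusted over 13096 genes), where 12.5% of all tested genes rose and 11.9% fell. In GemR siCont cells 8 rose and 6 fell, where 17.9% of all genes rose and 15.8% fell. In Par cells 8 rose and 7 fell, where 20.5% of all genes rose and 19.7% fell. The shares of listed genes were close to these backgrounds, and the median log2 responses were 0.01 in GemR siSTIM1, -0.08 in GemR siCont and 0.09 in Par. Without the 2 libraries that stood apart, 5 rose and 6 fell in GemR siSTIM1 (29.1% of all genes called) and 7 rose and 8 fell in GemR siCont (35.5%). TMEM41B, TRIM5, FAM160A2 and ARFIP2 were the listed genes called higher in all 3 backgrounds. The Par and GemR siCont libraries also stand in the contrast with which the genes were listed.

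TMEM41B codes for a lipid scramblase of the ER membrane that is needed for autophagosome formation and lipid export, and it had the largest response of the list in Par cells. In GemR siSTIM1 cells it had 2260, 2292 and 2513 normalized counts with thapsigargin, against 1321, 1283 and 1263 with vehicle. In GemR siCont cells it had 2562, 2553 and 2721 with thapsigargin, against 1988, 1725 and 1824 with vehicle. In Par cells it had 1990, 1932 and 1960 with thapsigargin, against 573, 609 and 578 with vehicle. Thapsigargin libraries lay above vehicle libraries in each background without overlap. The log2 fold changes were 0.87 ± 0.06 in GemR siSTIM1 (adjusted p = 3.15e-09, limma), 0.50 ± 0.06 in GemR siCont (adjusted p = 3.56e-06) and 1.74 ± 0.06 in Par (3.34-fold, adjusted p = 4.35e-14). The mean was 1846 ± 133 in GemR siCont vehicle libraries and 1960 ± 29.1 in Par thapsigargin libraries (SD, n = 3 each). The difference of the responses, GemR siCont minus Par, was -1.24 ± 0.09 on the log2 scale (adjusted p = 1.41e-08).

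TRIM5 also rose in all 3 backgrounds. In GemR siSTIM1 cells it had 2473, 2692 and 2770 normalized counts with thapsigargin, against 1495, 1442 and 1416 with vehicle. In GemR siCont cells it had 2641, 2409 and 2507 with thapsigargin, against 1066, 1134 and 1260 with vehicle. In Par cells it had 989, 849 and 875 with thapsigargin, against 369, 300 and 307 with vehicle. No thapsigargin library overlapped a vehicle library of the same background. The folds were 1.82 in GemR siSTIM1 (adjusted p = 1.92e-07, limma), 2.19 in GemR siCont (adjusted p = 3.27e-09) and 2.78 in Par (adjusted p = 5.90e-11). The difference of the responses, GemR siCont minus Par, was -0.35 ± 0.12 on the log2 scale and did not pass the threshold (adjusted p = 0.0609). TRIM5 spans several olfactory receptor genes and TRIM22 on the opposite strand in the annotation, and TRIM22 was under the minimum mean.

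The 250 bases before the start of 3 genes are printed: TMEM41B and TRIM5, which had the 2 largest rises of the list in GemR siSTIM1 and in Par, and ADM, which fell in GemR. In GemR siCont, TRIM5 had the largest rise but FAM160A2, DENND5A and SBF2 rose more than TMEM41B, and for FAM160A2 no promoter was at hand. They are RefSeq promoters of GRCh38.p14, given 5' to 3' on each gene's own strand, TMEM41B at chr11:9314594-9314843 (minus strand), TRIM5 at chr11:5685075-5685324 (minus strand) and ADM at chr11:10304823-10305072 (plus strand). The RefSeq starts lie inside the GENCODE 29 genes, so the windows of TRIM5 and ADM fall wholly and that of TMEM41B mostly within the GENCODE gene.
TMEM41B: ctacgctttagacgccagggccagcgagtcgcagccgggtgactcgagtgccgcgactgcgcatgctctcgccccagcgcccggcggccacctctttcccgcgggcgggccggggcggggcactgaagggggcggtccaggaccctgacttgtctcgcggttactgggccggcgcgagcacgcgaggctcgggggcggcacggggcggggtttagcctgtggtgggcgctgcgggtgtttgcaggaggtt
TRIM5: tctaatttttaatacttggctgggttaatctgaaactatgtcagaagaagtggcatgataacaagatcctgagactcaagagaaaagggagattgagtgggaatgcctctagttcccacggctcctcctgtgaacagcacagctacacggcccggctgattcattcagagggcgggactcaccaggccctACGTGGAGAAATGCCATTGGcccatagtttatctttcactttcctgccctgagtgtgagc
ADM: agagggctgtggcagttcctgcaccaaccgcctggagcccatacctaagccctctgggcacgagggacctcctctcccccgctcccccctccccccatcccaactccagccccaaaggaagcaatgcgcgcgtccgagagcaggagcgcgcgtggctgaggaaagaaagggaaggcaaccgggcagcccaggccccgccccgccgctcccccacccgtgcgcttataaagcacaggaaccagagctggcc
Capitals mark letters that match a searched motif. Both strands were searched for ERSE (CCAAT, any 9 bases, CCACG), a sequence bound by ATF6 with NF-Y in genes of the unfolded protein response, CARE (TGATGNAAN), a sequence bound by ATF4, CRE (TGACGTCA), the core of the unfolded protein response element (TGACGTGG) and the core of the hypoxia response element (ACGTG). TRIM5 held 1 ERSE match, on the strand opposite to the one printed, with its first printed base at -59 from the start, and an overlapping ACGTG at -60, so the capitals cover both. In all, 26 of 35116 RefSeq promoters held an ERSE match (0.074%). The windows of TMEM41B and ADM held none of the 5 motifs. Of the 44 listed genes 37 had a promoter in the table, many with more than 1 start, and counting any start, 1 gene held ERSE, 4 held CARE, 2 held CRE, 0 held TGACGTGG and 17 held ACGTG. Over single promoters the shares were 3.13% for CARE, 1.65% for CRE, 0.612% for TGACGTGG and 18.5% for ACGTG. These shares are per promoter and the counts per gene with any start, so the counts cannot be compared with them. A match of letters is a description and was not tested for binding.

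FAM160A2, part of a dynein adaptor complex that moves endosomes, rose in all backgrounds as well. In GemR siSTIM1 cells it had 1471, 1418 and 1431 normalized counts with thapsigargin, against 1040, 1024 and 1081 with vehicle. In GemR siCont cells it had 2108, 2118 and 2098 with thapsigargin, against 987, 1170 and 1055 with vehicle. In Par cells it had 426, 479 and 387 with thapsigargin, against 283, 310 and 318 with vehicle. The thapsigargin and vehicle libraries did not overlap in any of the 3, and the GemR siCont thapsigargin libraries were the highest of all. The log2 fold changes were 0.46 ± 0.08 in GemR siSTIM1 (adjusted p = 0.000197, limma), 0.98 ± 0.08 in GemR siCont (adjusted p = 8.1e-09) and 0.50 ± 0.08 in Par (adjusted p = 4.88e-05). The response of GemR siCont exceeded that of Par by 0.48 ± 0.11 (adjusted p = 0.0055), and the response of GemR siSTIM1 fell short of that of GemR siCont by a difference of -0.52 ± 0.11 (adjusted p = 0.00969).

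ADM had responses of opposite sign in the 2 cell states. In GemR siSTIM1 cells it had 706, 678 and 793 normalized counts with thapsigargin, against 1004, 995 and 1063 with vehicle. In GemR siCont cells it had 1411, 1453 and 1418 with thapsigargin, against 2273, 2051 and 1995 with vehicle. In Par cells it had 611, 709 and 687 with thapsigargin, against 506, 655 and 530 with vehicle. In both GemR backgrounds thapsigargin libraries lay below vehicle libraries, while in Par the groups overlapped. The log2 fold change was -0.49 ± 0.09 in GemR siSTIM1 (adjusted p = 0.000376, limma) and -0.56 ± 0.09 in GemR siCont (adjusted p = 7.25e-05). The rise in Par of 0.25 ± 0.09 passed the threshold (adjusted p = 0.0315), but was lost without any 1 of 4 of the 6 libraries, with an adjusted p of up to 0.167 without Par vehicle replicate 1. The difference of the responses, GemR siCont minus Par, was -0.81 ± 0.13 (adjusted p = 0.000186) and kept its call without each of the 12 libraries.

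TIMM10B, a small chaperone of protein import into mitochondria, rose in Par cells. In GemR siCont it had 1520, 1526 and 1495 normalized counts with thapsigargin, against 1776, 1504 and 1638 with vehicle, and the groups overlapped. In Par it had 711, 578 and 592 with thapsigargin, against 433, 390 and 377 with vehicle, with no overlap (log2 fold change 0.64 ± 0.08, adjusted p = 3.25e-06, limma). The responses, GemR siCont minus Par, differed by -0.76 ± 0.12 (adjusted p = 0.000125). In GemR siSTIM1 its log2 fold change of 0.24 (adjusted p = 0.0393) lost its call without any 1 of 5 libraries, with an adjusted p of up to 0.129 without GemR siSTIM1 thapsigargin replicate 1. TIMM10B overlaps ARFIP2, which binds Arf-family GTPases at the Golgi, on the opposite strand. With thapsigargin ARFIP2 had log2 fold changes of 0.23 in GemR siSTIM1 (adjusted p = 0.00788), 0.17 in GemR siCont (adjusted p = 0.0397) and 0.33 in Par (adjusted p = 0.000205), and the call in GemR siCont was lost without any 1 of 5 libraries, up to 0.112 without GemR siCont thapsigargin replicate 2.

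Further genes were called higher in 1 background. In Par, DNHD1, a dynein heavy chain gene of sperm flagella, had 159, 159 and 142 normalized counts with thapsigargin, against 82.2, 81.6 and 102 with vehicle (log2 fold change 0.79 ± 0.13, adjusted p = 6.28e-05, limma). The groups did not overlap. IPO7, a nuclear import receptor, had a log2 fold change of 0.30 in Par (adjusted p = 0.0256), a call lost without any 1 of 4 libraries, up to 0.0902 without Par thapsigargin replicate 1. In GemR siCont, DENND5A, an exchange factor for Rab GTPases, had 4337, 4313 and 4523 with thapsigargin, against 2519, 3309 and 3478 with vehicle (log2 fold change 0.51 ± 0.10, adjusted p = 0.000393). The groups did not overlap, and the lowest vehicle value came from the replicate that stood apart. SBF2 at 0.51 (adjusted p = 0.0166) and TPP1 at 0.26 (adjusted p = 0.0157) were called in GemR siCont too, and without that replicate 1 of the vehicle group their adjusted p was 0.0895 and 0.0763. SBF2 also lost its call without GemR siCont thapsigargin replicate 3 and TPP1 without 1 other library. For DNHD1, IPO7, DENND5A, SBF2 and TPP1, the responses of GemR siCont did not differ past the threshold from those of Par or of GemR siSTIM1. The responses of Par and GemR siSTIM1 were not compared by a test.

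Genes that fell with thapsigargin in Par cells were led by TMEM9B, a membrane protein of lysosomes. It had 476, 520 and 463 normalized counts in Par thapsigargin libraries, against 717, 806 and 777 in Par vehicle libraries (log2 fold change -0.66 ± 0.09, adjusted p = 5.47e-06, limma). TRIM21 had 200, 199 and 189 with thapsigargin, against 290, 288 and 301 with vehicle (-0.58 ± 0.08, adjusted p = 8.41e-06). MRPL17, a protein of the large mitochondrial ribosomal subunit, had 1157, 1278 and 1147 with thapsigargin, against 1774, 1808 and 1660 with vehicle (-0.55 ± 0.10, adjusted p = 0.000198). None of these 3 had overlapping groups in Par. TMEM9B and MRPL17 also fell in GemR siCont, with log2 fold changes of -0.38 (adjusted p = 0.00204) and -0.35 (adjusted p = 0.00995). Their highest GemR siCont vehicle values, 2599 and 8935, came from replicate 1, which stood apart. MRPL17 had 6347 and 6334 in the other vehicle libraries, and its adjusted p was 0.0367 without replicate 1. TRIM21 had 1753, 1723 and 1668 in GemR siCont thapsigargin libraries, against 2181, 1808 and 1740 in GemR siCont vehicle libraries, overlapping groups, and its response there exceeded that in Par by 0.43 ± 0.11 (adjusted p = 0.0118).

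Smaller falls in Par were those of TUB at -0.45 (adjusted p = 0.00798, limma) and WEE1 at -0.25 (adjusted p = 0.00477). TRIM3, a ubiquitin ligase of neurons, had 299, 300 and 258 normalized counts in GemR siCont thapsigargin libraries, against 192, 239 and 214 in GemR siCont vehicle libraries. That rise of 0.41 on the log2 scale (adjusted p = 0.0464) was lost without any 1 of 4 libraries, up to 0.14 without GemR siCont vehicle replicate 1. In Par TRIM3 had 50.1, 49.6 and 45.8 with thapsigargin, against 59.9, 53.4 and 92.7 with vehicle, a log2 fold change of -0.45. The adjusted p of that fall was 0.0248 with all libraries and 0.191 without Par vehicle replicate 3, which held the high value. The difference of the TRIM3 responses, GemR siCont minus Par, was 0.87 ± 0.22 (adjusted p = 0.00997) and kept its call without each library. APBB1 at -0.29 in Par (adjusted p = 0.0287) had overlapping groups and lost its call without any 1 of 4 libraries, up to 0.131 without Par thapsigargin replicate 3.

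In GemR siCont the largest fall with thapsigargin was that of ZNF215. It had 51.7, 41.4 and 68.6 normalized counts in GemR siCont thapsigargin libraries, against 98.0, 95.5 and 99.4 in GemR siCont vehicle libraries (log2 fold change -0.88 ± 0.17, adjusted p = 0.000492, limma). In Par it had 120, 132 and 89.4 with thapsigargin, against 103, 110 and 111 with vehicle, with overlap. The responses differed by -0.93 ± 0.24 (adjusted p = 0.0117). ZNF215 overlaps ZNF214 on the opposite strand, and ZNF214 was under the minimum mean. ZNF143 fell in GemR siCont by 0.36 on the log2 scale (log2 fold change -0.36, adjusted p = 0.0144), a call lost without either of 2 libraries, up to 0.0812 without GemR siCont thapsigargin replicate 3, and AKIP1, a protein that binds protein kinase A, by 0.30 (log2 fold change -0.30, adjusted p = 0.00858). ZNF143 had 377, 332 and 306 in GemR siCont thapsigargin libraries, against 411, 454 and 435 in GemR siCont vehicle libraries. In Par it had 376, 335 and 328 with thapsigargin, against 296, 269 and 306 with vehicle. The responses differed by -0.61 ± 0.15 (adjusted p = 0.00928).

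**Figure D3:**
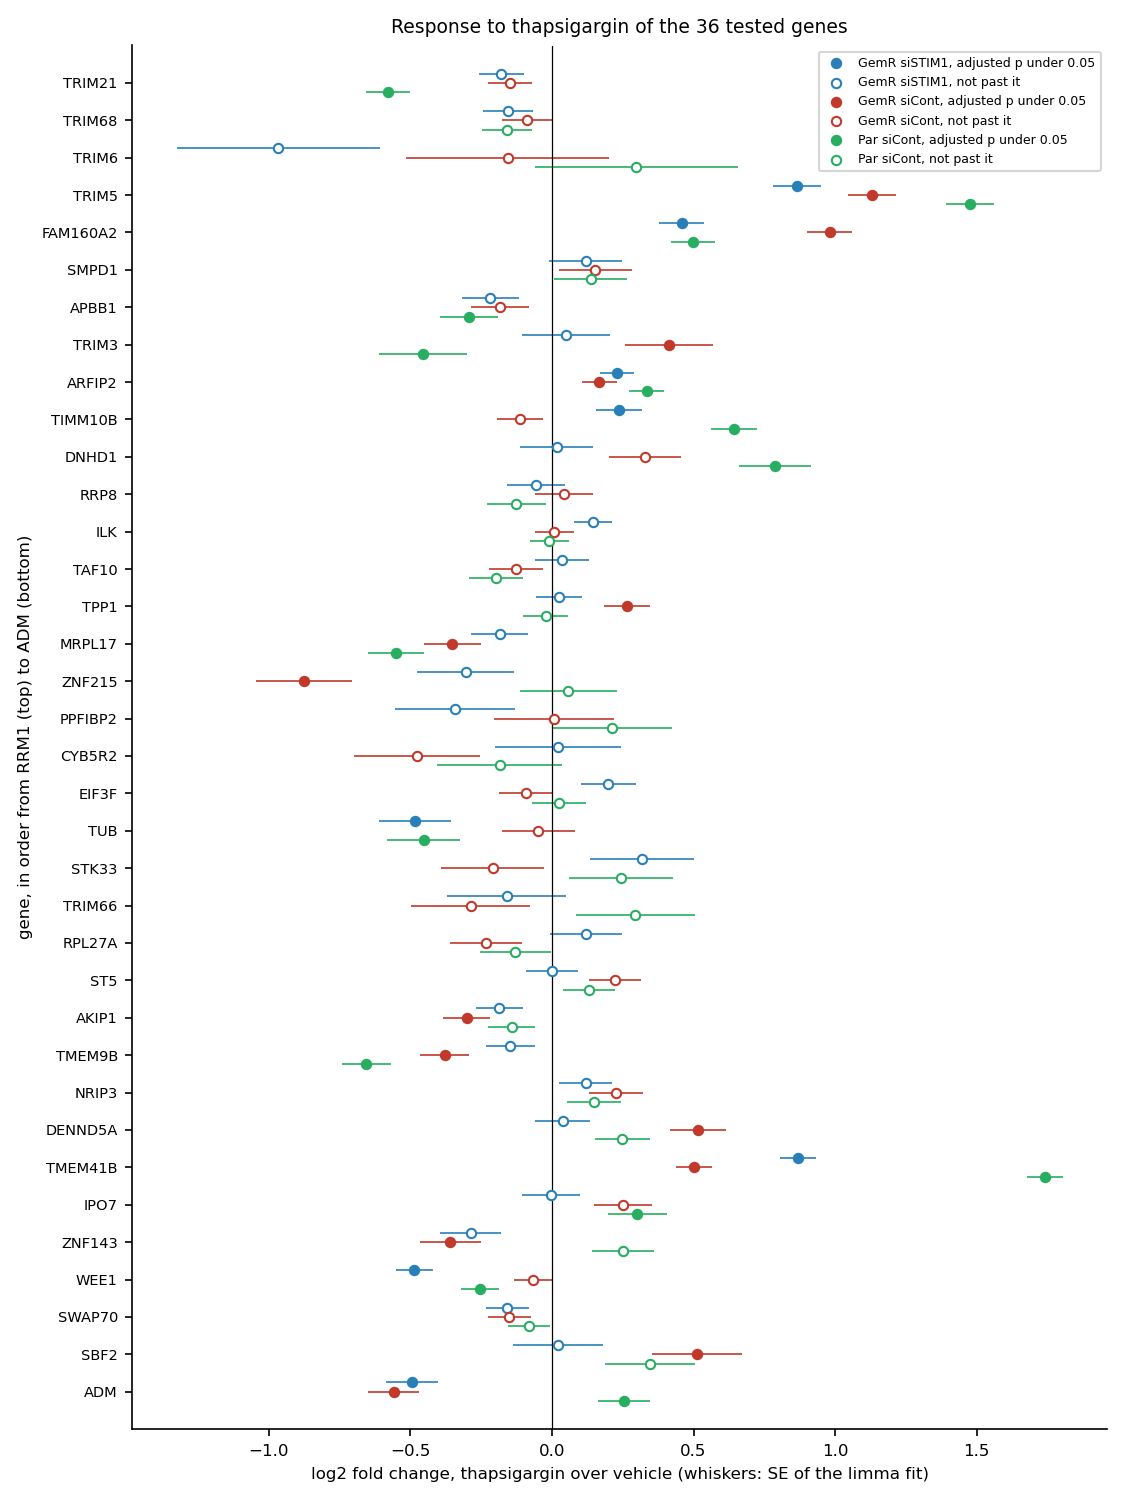
Log2 fold change of thapsigargin over vehicle for the 36 tested genes, in order along the chromosome, in GemR siSTIM1 (blue), GemR siCont (red) and Par (green); points are estimates of the fit, whiskers 1 standard error, and filled points have an adjusted p under 0.05. TMEM41B and TRIM5 are filled and right of 0 in all 3 colours, and ADM is left of 0 in both GemR backgrounds and right of 0 in Par.

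As differences between GemR siCont and Par responses, 3 of the 36 genes had a higher and 5 a lower response in GemR, where 7.14% of all tested genes had a higher and 7.66% a lower one. The higher ones were TRIM3, FAM160A2 and TRIM21, and the lower ones TMEM41B, ZNF215, ADM, TIMM10B and ZNF143. Without the 2 libraries that stood apart, 6 were higher and 9 lower, and 29.4% of all genes were called, and without GemR siCont vehicle replicate 1 alone 13 genes were called. Each of the 8 named genes kept its call without each single library. Differences between GemR siSTIM1 and GemR siCont responses were fewer: 1 gene had a higher and 2 a lower response with siSTIM1, where 1.5% of all genes had a higher and 2.9% a lower one. These were TMEM41B, FAM160A2 and WEE1. This count of 3 was 5 without GemR siCont vehicle replicate 3, 2 without GemR siCont thapsigargin replicate 1 and 5 with the replicate number as a block.

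WEE1 had 698, 733 and 783 normalized counts in GemR siSTIM1 thapsigargin libraries, against 1064, 1036 and 998 in GemR siSTIM1 vehicle libraries. In GemR siCont it had 865, 873 and 938 with thapsigargin, against 944, 931 and 926 with vehicle. The siSTIM1 groups did not overlap, and the siCont groups did. The log2 fold change was -0.49 ± 0.07 with siSTIM1 (adjusted p = 1.38e-05, limma) and -0.07 ± 0.07 with siCont (adjusted p = 0.462), and the difference of -0.42 ± 0.09 passed the threshold (adjusted p = 0.0139). For TMEM41B the response with siSTIM1 exceeded that with siCont by 0.36 ± 0.09 (adjusted p = 0.0244). That call was lost without any 1 of 4 libraries, with an adjusted p of up to 0.0673 without GemR siCont thapsigargin replicate 1. TUB fell with thapsigargin in GemR siSTIM1, with 152, 218 and 197 normalized counts with thapsigargin, against 252, 269 and 264 with vehicle (log2 fold change -0.48 ± 0.13, adjusted p = 0.0079). Its adjusted p was 0.0594 without GemR siSTIM1 thapsigargin replicate 1, which held the lowest value.

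The other tested question was the effect of siSTIM1 in GemR cells. With thapsigargin, 5 of the 36 genes were higher and 10 lower than with siCont at an adjusted p under 0.05, where 17.7% of all tested genes were higher and 18.9% lower. With vehicle 7 were higher and 11 lower, where 20.9% of all genes were higher and 21.1% lower. The vehicle count of 18 was 10 when only the libraries compared were fitted, and ran from 13 to 21 with single libraries left out. Without the 2 libraries that stood apart, 7 were higher and 14 lower with thapsigargin (46.2% of all genes called), and 6 higher and 10 lower with vehicle (40.3%). The median siSTIM1 effect over the 36 genes was -0.07 on the log2 scale with each treatment, while the log2 fold change of STIM1 itself was -4.32 with thapsigargin and -3.93 with vehicle. RRM1 had 59323, 58788 and 55241 normalized counts in GemR siSTIM1 vehicle libraries, against 55344, 50841 and 53625 in GemR siCont vehicle libraries, with overlapping groups (log2 fold change 0.12, adjusted p = 0.114). The GemR siCont libraries also stand in the GemR over Par contrast with which the genes were listed. Called in both were SWAP70, TRIM66 and ARFIP2 as higher and TRIM6, ADM, NRIP3, TUB, CYB5R2 and RRP8 as lower.

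TRIM6 had the largest fall after STIM1. With thapsigargin it had 20.8, 42.3 and 21.0 normalized counts in GemR siSTIM1 libraries, against 97.8, 119 and 134 in GemR siCont libraries. With vehicle it had 45.5, 51.9 and 61.6 in GemR siSTIM1 libraries, against 136, 119 and 134 in GemR siCont libraries. All siSTIM1 libraries lay below all siCont libraries and above all Par libraries, where TRIM6 ranged from 2.93 to 13.4. The log2 fold change was -2.09 ± 0.36 with thapsigargin (4.26-fold lower, adjusted p = 0.000135, limma) and -1.28 ± 0.36 with vehicle (2.43-fold lower, adjusted p = 0.00793). The difference of these effects did not pass the threshold (-0.81 ± 0.51, adjusted p = 0.367). TRIM21 and TRIM68, the high TRIM genes nearer to RRM1, had siSTIM1 effects of 0.14 (adjusted p = 0.151) and 0.27 (adjusted p = 0.0189) with vehicle, the second lost without GemR siCont vehicle replicate 1 (adjusted p = 0.131) and 1 other library.

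ADM fell with siSTIM1 in both treatments. With thapsigargin it had 706, 678 and 793 normalized counts in GemR siSTIM1 libraries, against 1411, 1453 and 1418 in GemR siCont libraries. With vehicle it had 1004, 995 and 1063 in GemR siSTIM1 libraries, against 2273, 2051 and 1995 in GemR siCont libraries. The groups were apart in both. The log2 fold change was -0.98 ± 0.09 with thapsigargin (1.97-fold lower, adjusted p = 8.53e-08, limma) and -1.04 ± 0.09 with vehicle (2.06-fold lower, adjusted p = 5.44e-08). NRIP3, a little studied nuclear receptor interacting gene, had 365, 311 and 338 in GemR siSTIM1 vehicle libraries, against 451, 433 and 467 in GemR siCont vehicle libraries (log2 fold change -0.41 ± 0.09, adjusted p = 0.00193), and -0.52 with thapsigargin (adjusted p = 0.000235).

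SWAP70, a phosphoinositide-binding protein that acts on Rac and actin, was the clearest rise. With thapsigargin it had 2043, 2381 and 2343 normalized counts in GemR siSTIM1 libraries, against 1571, 1539 and 1576 in GemR siCont libraries. With vehicle it had 2588, 2440 and 2503 in GemR siSTIM1 libraries, against 1544, 1834 and 1840 in GemR siCont libraries. The groups did not overlap, and log2 fold changes were 0.53 ± 0.08 with thapsigargin (adjusted p = 1.99e-05, limma) and 0.53 ± 0.08 with vehicle (adjusted p = 2.14e-05). ARFIP2 rose by 0.29 on the log2 scale with thapsigargin (adjusted p = 0.000872) and by 0.23 with vehicle (adjusted p = 0.00569). TRIM66, a chromatin reader of the TIF1 family, rose by 0.72 with thapsigargin (adjusted p = 0.011) and by 0.59 with vehicle (adjusted p = 0.0295), where groups overlapped and the adjusted p was 0.203 without GemR siCont vehicle replicate 1. TRIM66 overlaps RPL27A on the opposite strand, and RPL27A had a log2 fold change of -0.39 with vehicle (adjusted p = 0.0178, and 0.0759 without that replicate).

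Other siSTIM1 effects with vehicle were a rise of SBF2, with 839, 722 and 799 normalized counts in GemR siSTIM1 libraries, against 344, 511 and 617 in GemR siCont libraries (log2 fold change 0.72 ± 0.16, adjusted p = 0.00143, limma), and falls of CYB5R2 and TMEM41B. The lowest SBF2 value, 344, came from the replicate that stood apart, and the call held without each single library. With thapsigargin the siSTIM1 effect on SBF2 was 0.23 (adjusted p = 0.284), with overlapping groups. CYB5R2, a cytochrome b5 reductase, had 26.2, 28.5 and 36.8 in GemR siSTIM1 libraries, against 71.3, 67.4 and 58.7 in GemR siCont libraries (-1.10 ± 0.22, adjusted p = 0.000732). Its groups were apart with vehicle but overlapped with thapsigargin, where the call (-0.60, adjusted p = 0.0418) was lost without any 1 of 4 libraries, up to 0.235 without GemR siSTIM1 thapsigargin replicate 2. TMEM41B had a log2 fold change of -0.15 ± 0.06 with thapsigargin (adjusted p = 0.0705) and -0.52 ± 0.06 with vehicle (adjusted p = 4.19e-06). TRIM5 rose by 0.33 (adjusted p = 0.0043) and TPP1 by 0.23 (adjusted p = 0.0271, and 0.146 without GemR siCont vehicle replicate 1). TUB fell with both treatments, at -0.85 with thapsigargin (adjusted p = 3.28e-05) and -0.41 with vehicle (adjusted p = 0.0145), and the vehicle call was lost without either of 2 libraries, up to 0.06 without GemR siCont vehicle replicate 2. STK33 at -0.58 (adjusted p = 0.016) lost its call without GemR siCont vehicle replicate 1 (adjusted p = 0.0843) and without 1 other library.

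With thapsigargin, the siSTIM1 effect on FAM160A2 was -0.55 ± 0.08 (adjusted p = 2.04e-05, limma), and with vehicle it was -0.03 ± 0.08 (adjusted p = 0.802). The difference is that of its thapsigargin responses. DNHD1 fell too, with 334, 369 and 405 normalized counts in GemR siSTIM1 thapsigargin libraries, against 528, 480 and 504 in GemR siCont thapsigargin libraries (-0.45 ± 0.13, adjusted p = 0.00942). The groups did not overlap. TMEM9B rose by 0.35 (adjusted p = 0.00334). TIMM10B rose by 0.23 (adjusted p = 0.0313), a call lost without any 1 of 5 libraries, up to 0.0963 without GemR siSTIM1 thapsigargin replicate 1. The remaining called genes were RRP8 (-0.39), DENND5A (-0.29) and WEE1 (-0.27) with thapsigargin, and TAF10 (-0.40), RRP8 (-0.29) and ILK (-0.26) with vehicle. Of these, DENND5A (up to an adjusted p of 0.143 without GemR siSTIM1 thapsigargin replicate 1) and RRP8 with vehicle (up to 0.164 without GemR siCont vehicle replicate 1) lost their call without any 1 of 4 libraries. TAF10 had 5657, 4021 and 4137 in GemR siCont vehicle libraries, with the highest value in the replicate that stood apart.

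**Figure D4:**
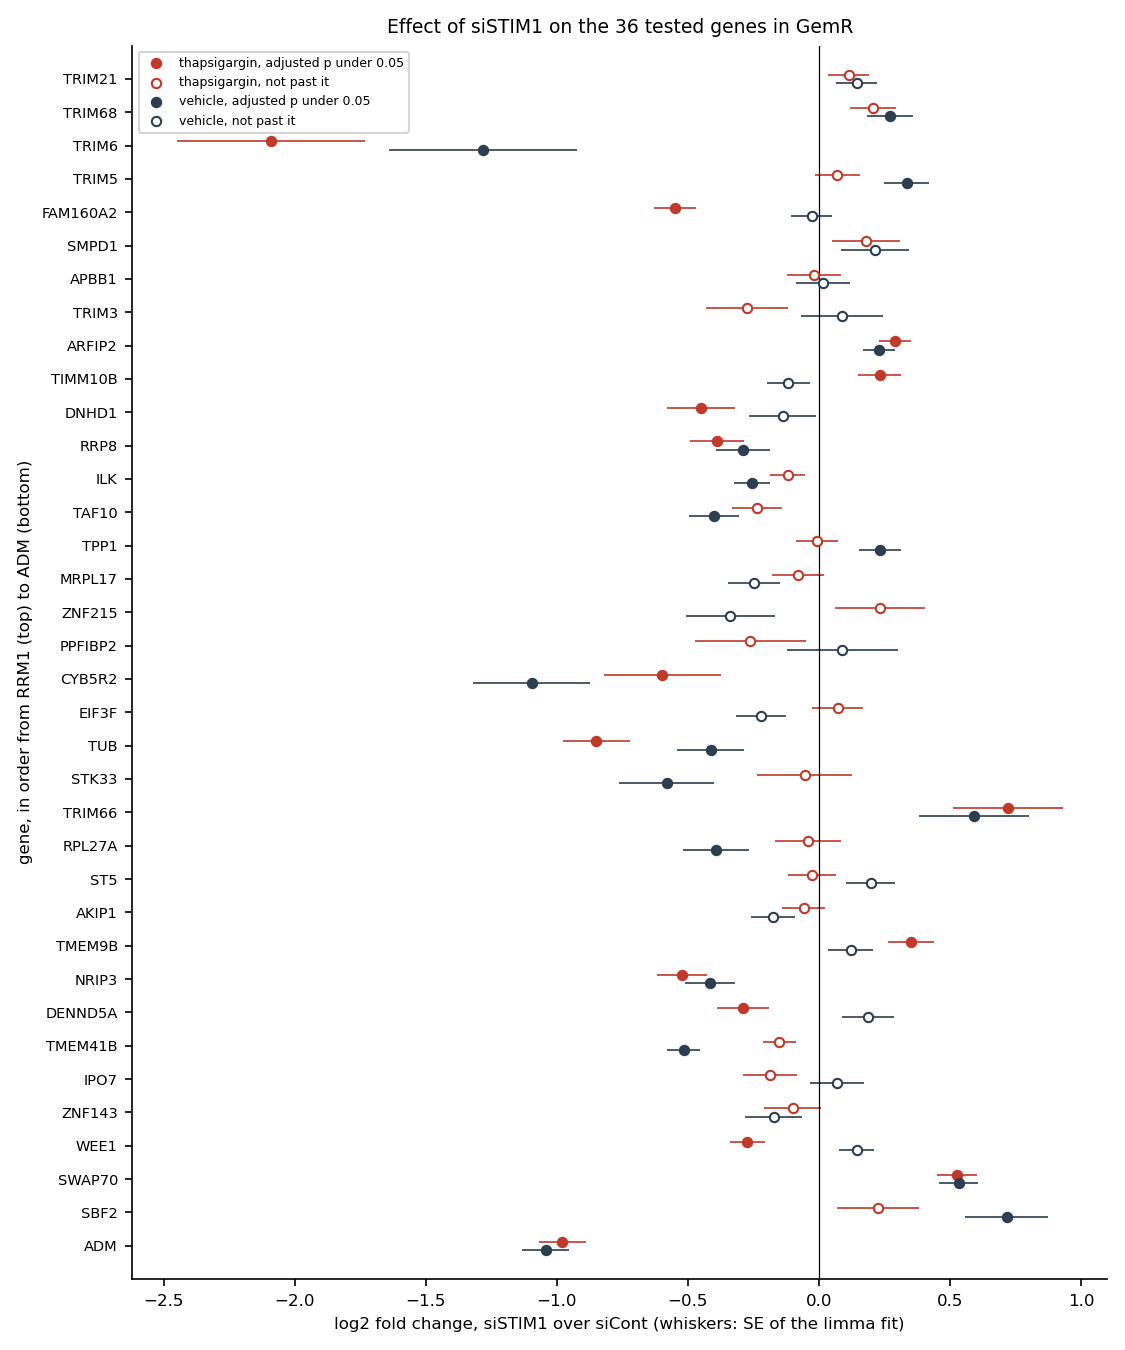
Log2 fold change of siSTIM1 over siCont in GemR cells for the 36 tested genes, in order along the chromosome, with thapsigargin (red) and with vehicle (dark blue); points are estimates of the fit, whiskers 1 standard error, and filled points have an adjusted p under 0.05. TRIM6 and ADM lie left of 0 with both treatments, and most genes lie within 0.5 of 0.

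Of 81 calls of a listed gene in a tested comparison, 59 held without each single library, and 54 held there and in each of the other settings apart from the 2-fold minimum. The remaining 5 were MRPL17 with thapsigargin in GemR siCont (adjusted p = 0.0927), ARFIP2 (0.0613), TAF10 (0.0562) and ILK (0.0696) for siSTIM1 with vehicle, each when only the libraries compared were fitted, and ARFIP2 with thapsigargin in GemR siSTIM1, at 0.109 with quantile normalization. ILK lost its call in 2 of the 11 other settings, and the value given is the higher. The authors' deposited tables, which hold their own fold changes and adjusted p-values, covered the thapsigargin responses. By the authors' deposited table for GemR siSTIM1, 5 listed genes were higher and 4 lower at an adjusted p under 0.05, beside 23.6% of all genes with an adjusted p. By the authors' deposited table for GemR siCont these were 9 and 6, beside 30.3%, and by the authors' deposited table for Par they were 8 and 6, beside 34.2%. The log2 fold change of TMEM41B in each authors' deposited table was 0.87 for GemR siSTIM1, 0.50 for GemR siCont and 1.74 for Par. Of the 36 tested genes, 12 overlap a protein-coding gene on the opposite strand, and since the use of strand in counting is unknown here, reads of such pairs (ARFIP2 with TIMM10B, ILK with TAF10, TRIM66 and ST5 with RPL27A, TUB with RIC3) cannot be told apart with certainty.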

How the data were processed

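Messenger RNA was measured in 18 libraries, 3 in each of 6 groups taken from the sample titles. The submitters' processing notes list DESeq2, HTSeq 0.11.1, STAR 2.6.0c and the build hg38. For annotation, strand setting and filters no detail is given in the sources used here. A table of normalized counts deposited by the authors was used here as a signal. Its values behave as reads of a gene over a size factor of the library, since all were whole multiples of the library's smallest step (100% to a tolerance of 0.01). Tables of log2 fold changes and adjusted p-values were likewise deposited by the authors, per the file headers. In all, 0 columns were left unused.

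From the normalized counts, log2(value + 1) was computed for genes with a mean of at least 10, so folds of low genes are understated. With limma 3.58.1 (mean-variance trend) in R 4.3.3, a mean for each group was estimated from the 18 libraries jointly, leaving 12 residual degrees of freedom, tests were two-sided, and the Benjamini-Hochberg adjustment of p-values ran over all 13096 genes. Calls needed an adjusted p under 0.05. Reads per library, 8922439 to 16519239, were recovered from the steps. The code was tested on simulated data.

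The members and lists were chosen with earlier results of these data known. Named genes were STIM1, RRM1, the 6 highest and 6 lowest GemR over Par fold changes in vehicle, and the called members of each tested comparison, up to 6 each way. The further called members were added after their values were seen. Positions and exon lengths came from GENCODE 29, which matched 23824 symbols of the table, and promoters from RefSeq (GRCh38.p14). Alternatives tried were another pseudocount (0.5 or 5), another minimum mean (50, or no filter), quantile normalization or median centring, a fit of only the libraries compared, a replicate block, leaving out each replicate or both libraries that stood apart, a 2-fold minimum, and tests of recovered reads of 17 libraries by DESeq2 1.42.0 and by the quasi-likelihood test of edgeR 4.0.16. GemR siSTIM1 vehicle replicate 3 was left out of these count tests because its step, 0.993, was too close to 1 for whole reads to be told from the deposited values. Figures were drawn with matplotlib 3.10.9 in Python 3.11.15 from tables read by pandas 2.3.3 with numpy 2.4.6.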

Additional observations from a re-analysis of the deposited data

Results flagged for a closer look

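Thapsigargin responses that differed between cell states or siRNAs by a test of the difference itself (limma, adjusted over 13096 genes) were the following. For GemR siCont minus Par, each difference of log2 fold changes kept its call without each of the 12 libraries: TMEM41B differed by -1.24 (adjusted p = 1.41e-08), ZNF215 by -0.93 (adjusted p = 0.0117), ADM by -0.81 (adjusted p = 0.000186), TIMM10B by -0.76 (adjusted p = 0.000125), ZNF143 by -0.61 (adjusted p = 0.00928), TRIM21 by 0.43 (adjusted p = 0.0118), FAM160A2 by 0.48 (adjusted p = 0.0055) and TRIM3 by 0.87 (adjusted p = 0.00997). For GemR siSTIM1 minus GemR siCont, FAM160A2 differed by -0.52 (adjusted p = 0.00969) and WEE1 by -0.42 (adjusted p = 0.0139), both also without each of the 12 libraries, while TMEM41B differed by 0.36 (adjusted p = 0.0244), with an adjusted p over 0.05 without any 1 of 4 libraries. In each of these differences the responses of all 3 libraries per group entered, and no cause was tested.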

How the results depend on the processing

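No called value of a named gene changed sign under the alternatives run. Changes of sign of values that were not called were not all counted. Of the listed genes' counts of calls, a 2-fold minimum left 0 of 8 for thapsigargin in GemR siSTIM1 (limma), 1 of 14 in GemR siCont and 2 of 15 in Par, 1 of 15 for siSTIM1 with thapsigargin, 3 of 18 with vehicle, 1 of 8 differences between GemR siCont and Par responses and 0 of 3 between siSTIM1 and siCont responses. Fitting only the libraries compared left 10 calls for siSTIM1 with vehicle. Without the 2 libraries that stood apart, 15 GemR against Par responses differed. With each library left out in turn, counts ranged from 7 to 10 for thapsigargin in GemR siSTIM1, 10 to 15 in GemR siCont and 11 to 14 in Par, 12 to 15 for siSTIM1 with thapsigargin, 13 to 21 with vehicle, 8 to 13 for GemR against Par responses and 2 to 5 for siSTIM1 against siCont responses, 5 without GemR siCont vehicle replicate 3 and 2 without GemR siCont thapsigargin replicate 1. GemR over Par calls ranged from 32 to 33 with vehicle and 33 to 34 with thapsigargin, and the list's median from 1.80 to 1.85 and from 1.68 to 1.73. The genes were chosen with this contrast in view, so nothing is read from the GemR over Par ranges. By edgeR the thapsigargin median was 1.73. The cause of these shifts was not tested. Over 45 pairs of same-numbered replicates the correlation of their deviations ran from -0.177 to 0.491, and every one was over 0.1 in 1 of 15 group pairs. The highest was between the 2 libraries that stood apart. Differently numbered libraries were not correlated, so this cannot settle whether the replicates were paired. With the replicate number as a block, 5 responses differed between siSTIM1 and siCont. Values of single genes stayed the same in 2047 cases, lost their call in 219 and gained it in 5, and 3 moved. In tested comparisons the same meant the same side of the threshold. For GemR over Par folds it meant a shift smaller than the replicate spread, with no threshold. The lost calls include those under the 2-fold minimum. Depth limits TRIM6 in Par and the 8 genes under the minimum mean.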
